A study of Mus musculus with 11 samples.

Results

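The genes described here encode the signalling core of the T cell receptor complex and the first enzymes and adaptors behind it: Cd3e, Cd3g and Cd247 (CD3 chains), Cd8a and Cd8b1 (the CD8 co-receptor), Lck and Zap70 (proximal tyrosine kinases), Lat (an adaptor) and Prkcq (protein kinase C theta). They were chosen by name from the arrays' annotation, taking every probe set annotated to a single gene symbol. Of the 9 genes listed, 8 had such a probe set, 17 probe sets in all, and Lck was not analysed here. All 8 passed the filter on dim signal and were tested among 14795 genes, out of 18193 genes with a single-symbol probe set.

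As background, the antigen-binding chains of the receptor carry no signalling motif of their own. Signals pass through the CD3 chains and the CD247 (zeta) dimer, whose cytoplasmic tyrosines are phosphorylated by LCK, a kinase that CD8 brings to the receptor when it binds MHC class I. ZAP-70 docks on those phosphotyrosines and phosphorylates LAT, on which phospholipase C gamma and other effectors gather, and the diacylglycerol that the lipase releases recruits protein kinase C theta, which leads to NF-kappaB and AP-1. In CD8 T cells, strong receptor triggering is known to take receptors and co-receptors off the cell surface, which RNA arrays do not measure.

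RNA was measured on 11 Affymetrix mouse 3′ expression arrays. All 4 groups carry the transgenic receptor of pmel-1 mice, the donors of the cells, which is specific for gp100, a protein of pigment cells. CD8+ T cells enriched as CD44- (naive) or CD44+ (central memory) cells were grown into effectors in every group: antibodies to CD3 and CD28, then restimulation with the gp100 peptide on allogeneic feeder cells, and 2 weeks of culture in interleukin 2 (10 cetus units). The groups were naive-derived cells given a final 4 h of CD3 and CD28 stimulation (3 arrays), naive-derived unstimulated cells (2 arrays, with none for experiment 3), memory-derived cells given the same final 4 h (3 arrays) and memory-derived unstimulated cells (3 arrays). Replicate numbers mark 3 independent experiments. Every cell had therefore met anti-CD3 and peptide before, and naive and memory name the starting population, not the state at harvest.

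Values are on a log2 scale, after conversion from deposited, quantile-normalized values taken to be log10, so differences are relative to all genes on an array and levels of different genes are not compared. In bulk RNA, fewer cells of a type and less RNA per cell cannot be told apart. The memory-derived unstimulated arrays, the third above all, stood apart on the first principal component (40.3 to 77.4, against -37.5 to -11.6 on the other 8 arrays). The gap between 3′ and 5′ actin control probe sets, a sign of RNA integrity and labelling, was 0.581 to 0.782 (log10) in naive-derived stimulated cells, 0.462 to 0.478 in naive-derived unstimulated cells, 0.431 to 0.520 in memory-derived stimulated cells and 0.263 to 0.351 in memory-derived unstimulated cells. The groups of every pairwise comparison below differed in that gap without overlap, and its part in any result was not tested.

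The 5 CD8 T cell markers Cd8a, Cd8b1, Cd3e, Cd3g and Cd3d lay above the filter level of 1.54 (log2) on all 11 arrays. All of them but Cd3d are members described here, so they are no separate check of the CD8 T cell label. The defining markers Cd4, Cd79a and Ms4a1 of other cell types lay below that level on all 11. Other genes of those lists were above it on some or all arrays, at low levels: Pax5 on 9 and Cd79b on 6 of the B cell list, and Zbtb7b on 11, Cd40lg on 8 and Foxp3 on 4 of the CD4 and regulatory T cell list. Of the NK and gamma-delta T cell list, only 2 of 5 genes had a probe set. Sox13 was above the level on 7 arrays and Ncr1 on 2, so these cells were hardly assessed. Part of the myeloid marker signal moved with origin, and in memory-derived cells with stimulation too. The summed linear level of the macrophage and monocyte list, 6 of 7 genes with a probe set, was 24.7 to 36.1 in naive-derived stimulated cells and 31.5 to 35.2 in naive-derived unstimulated cells, against 47.4 to 53.4 in memory-derived stimulated cells and 58.0 to 66.8 in memory-derived unstimulated cells. The dendritic cell list, 3 of 3 genes, gave 22.5 to 34.1 in naive-derived stimulated cells and 23.5 to 34.2 in naive-derived unstimulated cells, against 47.7 to 58.2 in memory-derived stimulated cells and 68.4 to 106.5 in memory-derived unstimulated cells. Siglech lay below the filter level on all 11 arrays and Lyz2 on all but 4, whereas Itgax averaged 4.35 and 4.50 in naive-derived stimulated and unstimulated cells, against 5.58 and 6.27 in memory-derived ones. Cd68 moved the same way, averaging 3.47 and 3.57 in naive-derived stimulated and unstimulated cells, against 4.77 and 5.24 in memory-derived ones. So did Cd14, at 1.60 and 1.51, against 2.81 and 2.71, and Fcgr3, at 1.31 and 1.92, against 1.75 and 2.52. The other members did not share that direction throughout. Adgre1 averaged 1.97 and 2.00 in the naive-derived groups, against 1.80 and 1.69 in the memory-derived ones. Flt3 averaged 1.79 and 1.88, against 1.54 and 1.60, and Csf1r 2.73 and 2.80, against 2.77 and 2.46. Lyz2 averaged 1.42 and 1.75, against 1.60 and 1.35. The part of this signal in the differences by origin, and by stimulation in memory-derived cells, was not tested.

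In the RefSeq gene table for GRCm38.p6, Cd3g (chr9:44969572-44980431) and Cd3e (chr9:44998735-45009663) flank Cd3d within 40.1 kb of chromosome 9, and Cd8b1 (chr6:71322788-71337492) lies 35934 bases from Cd8a (chr6:71373427-71379171) on chromosome 6. Cd247 is at chr1:165779952-165871153, Zap70 at chr1:36761798-36782821, Lat at chr7:126363827-126369705 and Prkcq at chr2:11171905-11301226. The promoter windows of the members that passed the test in at least 1 comparison are shown as context for the differences below. They run from 250 bases before to 50 bases after a RefSeq start. For Prkcq and Lat that start lies inside the gene span given above, and the whole Prkcq window lies within its span. Cd8b1, which also passed, is named only. Capitals mark matches, on either strand, to motifs of factors known to act in T cells: AGGAAG (ETS), TGTGGT (RUNX), CAGGTG and CAGCTG (E boxes).
Prkcq, chr2:11172132-11172431, plus strand: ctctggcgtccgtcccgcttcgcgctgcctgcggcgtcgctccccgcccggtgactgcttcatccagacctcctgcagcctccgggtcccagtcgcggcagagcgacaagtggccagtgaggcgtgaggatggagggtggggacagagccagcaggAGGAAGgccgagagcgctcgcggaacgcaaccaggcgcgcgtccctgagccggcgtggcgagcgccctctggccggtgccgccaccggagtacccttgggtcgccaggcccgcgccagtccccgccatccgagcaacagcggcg
Cd8a, chr6:71373177-71373476, plus strand: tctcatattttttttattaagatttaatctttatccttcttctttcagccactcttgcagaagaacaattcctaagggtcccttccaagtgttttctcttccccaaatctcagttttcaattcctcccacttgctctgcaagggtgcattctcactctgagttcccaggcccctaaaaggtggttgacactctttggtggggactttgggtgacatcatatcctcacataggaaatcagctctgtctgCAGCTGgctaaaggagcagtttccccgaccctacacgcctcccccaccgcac
Cd3g, chr9:44980382-44980681, minus strand: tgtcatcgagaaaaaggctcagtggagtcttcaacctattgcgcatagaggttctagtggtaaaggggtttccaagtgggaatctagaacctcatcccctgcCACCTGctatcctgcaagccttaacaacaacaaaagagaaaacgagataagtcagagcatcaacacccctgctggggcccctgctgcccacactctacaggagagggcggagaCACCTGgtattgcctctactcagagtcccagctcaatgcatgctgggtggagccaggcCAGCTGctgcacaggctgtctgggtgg
Lat, chr7:126369519-126369818, minus strand: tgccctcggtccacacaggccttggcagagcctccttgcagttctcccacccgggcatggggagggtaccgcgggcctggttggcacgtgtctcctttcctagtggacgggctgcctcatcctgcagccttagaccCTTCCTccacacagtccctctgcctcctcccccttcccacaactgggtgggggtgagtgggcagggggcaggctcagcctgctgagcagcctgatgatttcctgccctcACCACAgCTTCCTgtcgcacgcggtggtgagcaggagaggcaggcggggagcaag

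Among the 9 windows of the 7 members with an entry, AGGAAG was found in 6, against 35.4% of 32851 RefSeq windows of that length. CAGGTG was in 5 (20.2% of all windows), TGTGGT in 2 (16.8%) and CAGCTG in 2 (16.3%). TATAAA was in none of the 9 and in 13.6% of all windows. Prkcq, the member with the widest range over arrays, held 1 AGGAAG. It begins at position -94 from the start used for the window, which is inside the gene span given above. Cd3g held 2 CAGGTG matches and 1 CAGCTG, Cd8a 1 CAGCTG close to its start, and Lat 2 AGGAAG and 1 TGTGGT. These matches are descriptions of the letters and say nothing of binding.

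**Figure D1:**
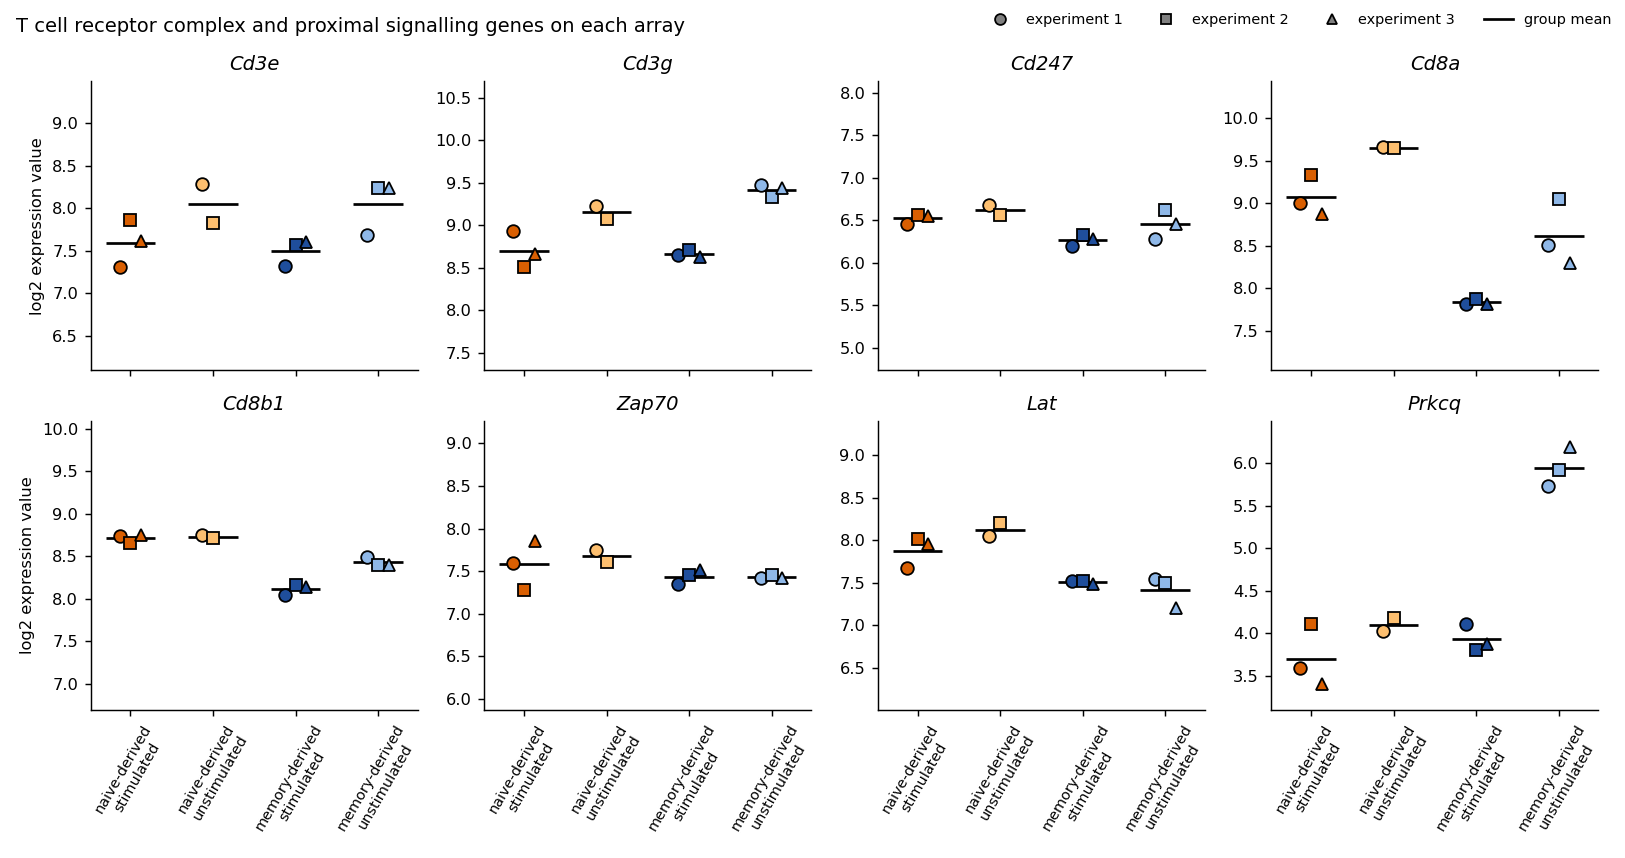
Log2 value of the 8 genes (1 panel each, y axis) on each of the 11 arrays (points, marked by experiment), with stimulated left of unstimulated and naive-derived left of memory-derived groups on the x axis, and the group mean as a bar. Prkcq lies between 3.41 and 4.18 in 3 groups and between 5.73 and 6.19 in memory-derived unstimulated cells, and Cd8a lies below 8 in memory-derived stimulated cells alone.

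The first question was how a final stimulation of 4 h moved these transcripts in memory-derived effectors. Prkcq, Cd8a, Cd3g and Cd8b1 fell, and none of the 8 rose. Over all genes tested, 17.3% fell and 14.3% rose (31.6% in either direction). The median difference of the 8 was -0.43 (log2), against 0.00 over all genes, with 6 of the 8 below zero. The comparison shares its memory-derived unstimulated arrays with the comparison of unstimulated cells by origin and with the difference in response. The macrophage and dendritic cell sums given above were lower in the stimulated cells here, without overlap. Cd68, Fcgr3 and Itgax averaged lower in them, while Csf1r, Cd14, Lyz2 and Adgre1 averaged higher. The part of this signal in the differences was not tested.

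Prkcq, the kinase that couples the receptor to NF-kappaB, was 4.11, 3.81 and 3.88 in memory-derived stimulated cells (experiments 1, 2 and 3), against 5.73, 5.92 and 6.19 in memory-derived unstimulated cells. The highest stimulated array lay far below the lowest unstimulated one. The difference was -2.02 (SE 0.190, 95% interval -2.44 to -1.60), a 4.04-fold lower level, with an adjusted p of 8.61e-05 by limma, and it ranked 75th from the lowest of 14795 genes. Within experiments it was -1.62, -2.11 and -2.32.

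Of the CD3 chains, Cd3g was 8.65, 8.70 and 8.63 in memory-derived stimulated cells, against 9.48, 9.33 and 9.44 in memory-derived unstimulated cells. All 3 stimulated arrays were lower, by an amount several times the spread within either group. It fell by 0.76 (SE 0.131, limma adjusted p 0.00174). Cd3e was 7.32, 7.57 and 7.60 in memory-derived stimulated cells, against 7.68, 8.24 and 8.23 in memory-derived unstimulated cells. These groups did not overlap, but the first unstimulated array lay close to the stimulated ones. The difference of -0.56 (SE 0.202) missed the threshold with a limma adjusted p of 0.0583, and without that array it was -0.74 with an adjusted p of 0.0210. Cd247, the zeta chain, was 6.20, 6.32 and 6.28 in memory-derived stimulated cells, against 6.28, 6.62 and 6.46 in memory-derived unstimulated cells. Its difference was -0.19 (95% interval -0.45 to 0.08, limma adjusted p 0.274).

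Cd8a, the CD8 alpha chain, was 7.82, 7.87 and 7.81 in memory-derived stimulated cells, against 8.50, 9.04 and 8.29 in memory-derived unstimulated cells. The stimulated arrays were tightly grouped below every unstimulated array, which were spread more widely. Cd8a fell by 0.78 (SE 0.188, limma adjusted p 0.00931). Cd8b1, the beta chain, was 8.04, 8.16 and 8.14 in memory-derived stimulated cells, against 8.49, 8.39 and 8.40 in memory-derived unstimulated cells. The groups did not overlap, and the difference was small. Cd8b1 fell by 0.31 (SE 0.105, limma adjusted p 0.0424). Its call was the least stable of those for the 4 genes, kept in 4 of 21 alternatives and lost in 17. It was lost, among others, with experiment as a block (limma adjusted p 0.0648). Leaving out any array but the second naive-derived stimulated one also ended it.

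Neither Zap70 nor Lat passed the test. Zap70, the kinase that docks on the CD3 chains, was 7.34, 7.45 and 7.51 in memory-derived stimulated cells, against 7.42, 7.45 and 7.41 in memory-derived unstimulated cells. The difference was 0.01 (95% interval -0.32 to 0.33, limma adjusted p 0.982). Lat, its substrate, was 7.52, 7.52 and 7.48 in memory-derived stimulated cells, against 7.54, 7.49 and 7.21 in memory-derived unstimulated cells. The groups of both genes overlapped, and the Lat difference was 0.09 (95% interval -0.21 to 0.39, limma adjusted p 0.664).

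**Figure D2:**
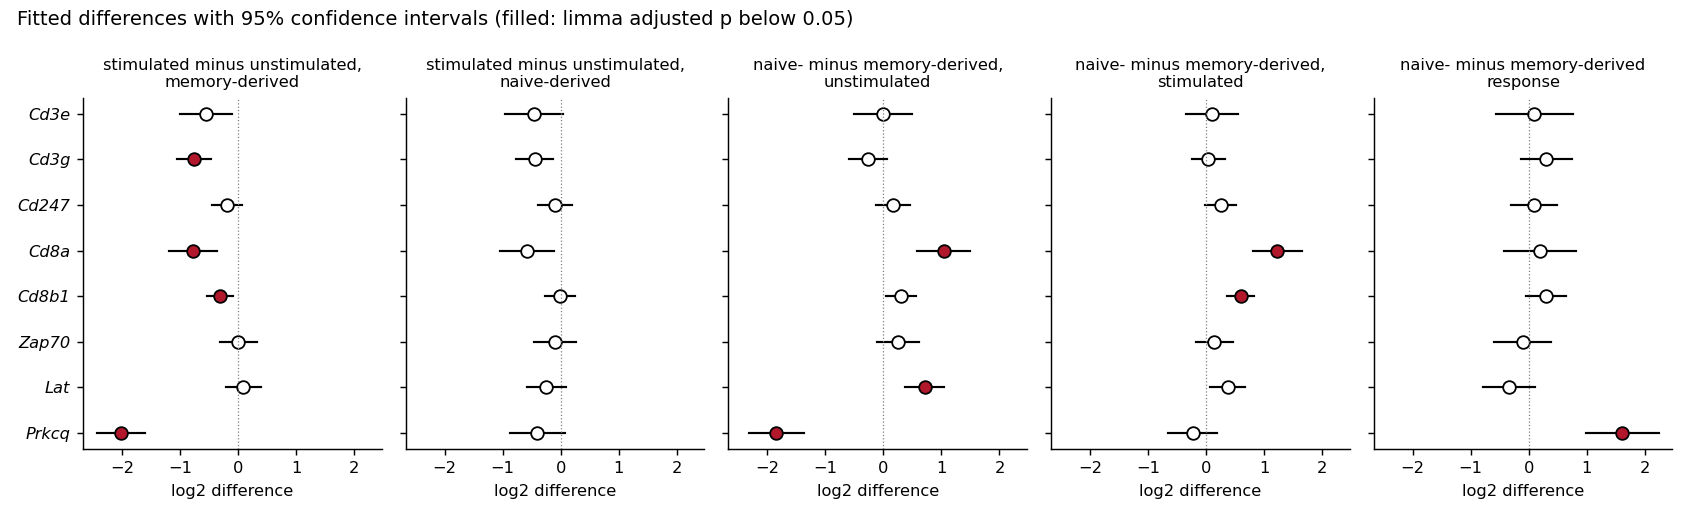
Log2 difference of each of the 8 genes with its 95% interval (x axis) in the 5 comparisons (panels), where filled points passed the limma test at an adjusted p of 0.05. Prkcq lies at -2.02 for stimulation in memory-derived cells and -1.84 for naive minus memory in unstimulated cells, and Cd8a at 1.04 and 1.23 for naive minus memory in unstimulated and stimulated cells.

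The same stimulation was then compared in naive-derived effectors, where there were 3 stimulated and 2 unstimulated arrays. None of the 8 genes passed the limma test, and 2 of the 14795 genes did (0.0135%, both lower). At an unadjusted p of 0.05, 2 of the 8 (Cd3g and Cd8a) and 1252 of all genes were called. With the brightest probe set of each gene, all 8 differences lay below zero, with a median of -0.32 against 0.01 over all genes. Tested singly, other probe sets of Cd247 lay above zero: 1420716_at at 0.13, 1426079_at at 0.12 and 1452539_a_at at 0.12. Of the other Zap70 probe sets, 1440178_x_at was at 0.09 and 1439749_at at -0.01. None of these passed.

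Cd8a was 8.99, 9.33 and 8.87 in naive-derived stimulated cells, against 9.66 and 9.65 in naive-derived unstimulated cells. The stimulated arrays all lay lower, but varied far more than the unstimulated pair. The difference was -0.58 (SE 0.210, 95% interval -1.05 to -0.12, limma adjusted p 0.508). Cd3g was 8.94, 8.51 and 8.66 in naive-derived stimulated cells, against 9.22 and 9.08 in naive-derived unstimulated cells, again without overlap. Its difference was -0.45 (SE 0.146, 95% interval -0.77 to -0.13, limma adjusted p 0.447).

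Prkcq was 3.59, 4.11 and 3.41 in naive-derived stimulated cells, against 4.02 and 4.18 in naive-derived unstimulated cells. The groups overlapped through the second experiment, and the difference was -0.40 (95% interval -0.87 to 0.07, limma adjusted p 0.647). Cd8b1 was 8.74, 8.66 and 8.75 in naive-derived stimulated cells, against 8.75 and 8.71 in naive-derived unstimulated cells. That difference was -0.02 (95% interval -0.27 to 0.24, limma adjusted p 0.988), so a change of Cd8b1 beyond about 0.27 in either direction lies outside the interval.

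Among the remaining members, Cd3e was 7.31, 7.86 and 7.62 in naive-derived stimulated cells, against 8.28 and 7.82 in naive-derived unstimulated cells. The groups overlapped, and the paired differences were -0.97 in experiment 1 and 0.04 in experiment 2. Lat was 7.67, 8.01 and 7.95 in naive-derived stimulated cells, against 8.05 and 8.20 in naive-derived unstimulated cells. The arrays did not overlap, but the second stimulated one lay just under the unstimulated pair, and the difference was -0.25 (limma adjusted p 0.719). Cd247 and Zap70 differed by -0.10 each (limma adjusted p 0.895 and 0.920).

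The difference in response between origins was tested directly, as the response of naive-derived cells minus that of memory-derived cells. Of the 8 genes, 1 passed, with a larger value in naive-derived cells, against 1.62% of all genes tested in that direction, 1.09% in the other and 2.71% in either (239 of 401 calls in that direction, but 68 of 146 after scaling to the hybridization controls). It was Prkcq, at -0.40 in naive-derived cells and -2.02 in memory-derived cells, a difference of 1.61 (SE 0.286, 95% interval 0.98 to 2.24, limma adjusted p 0.0261). With experiment as a block it was 1.63 and its adjusted p 0.0634. Its call was also lost without naive-derived stimulated array 1 or 2, naive-derived unstimulated array 1 or 2, or memory-derived stimulated array 2 or 3, with adjusted p-values of 0.0179 to 0.122 over the 11 arrays left out in turn. For Cd8a the difference in response was 0.19 (95% interval -0.43 to 0.82, limma adjusted p 0.727), and for the other 6 it was between -0.34 and 0.31, with limma adjusted p-values of 0.282 to 0.879.

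The third question was whether effectors of either origin differed before the final stimulation. In unstimulated cells, Cd8a and Lat were higher and Prkcq was lower in naive-derived than in memory-derived cells. Those are 2 of 8 higher, against 10.9% of all genes tested, and 1 of 8 lower, against 14.9% (25.8% in either direction). The median difference, naive minus memory, was 0.21 over the 8 and -0.01 over all genes.

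Cd8a was 9.66 and 9.65 in naive-derived unstimulated cells, against 8.50, 9.04 and 8.29 in memory-derived unstimulated cells. Both naive-derived arrays lay above all 3 memory-derived ones, and the second memory-derived array came closest. The difference was 1.04 (SE 0.210, 95% interval 0.57 to 1.50, limma adjusted p 0.00521), a 2.05-fold higher level. Lat was 8.05 and 8.20 in naive-derived unstimulated cells, against 7.54, 7.49 and 7.21 in memory-derived unstimulated cells. The groups did not overlap, and the difference was 0.71 (SE 0.152, limma adjusted p 0.00676). Without the second naive-derived unstimulated array it was 0.63 with an adjusted p of 0.0667.

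Prkcq was 4.02 and 4.18 in naive-derived unstimulated cells, against 5.73, 5.92 and 6.19 in memory-derived unstimulated cells. No array of one origin came near the other origin, and the difference was -1.84 (SE 0.213, limma adjusted p 0.000341), a 3.59-fold lower level. Within experiments it was -1.71 and -1.73. The summed macrophage and dendritic cell levels given above, carried by Cd68, Cd14, Fcgr3 and Itgax, were also lower in naive-derived cells here, while Csf1r, Adgre1, Lyz2 and Flt3 averaged higher in them, and the part of this signal in the Cd8a, Lat and Prkcq differences was not tested.

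No other member passed. Cd8b1 differed by 0.30 (95% interval 0.04 to 0.56, limma adjusted p 0.0823), Cd3g by -0.26 (adjusted p 0.219), Zap70 by 0.25 (adjusted p 0.303) and Cd247 by 0.17 (adjusted p 0.406). The Cd3e means were equal to 2 decimals, 8.05 in naive-derived and in memory-derived unstimulated cells, with a 95% interval of -0.50 to 0.50 for the difference (limma adjusted p 0.994).

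After the final stimulation, the CD8 genes set the origins apart. Cd8a and Cd8b1 were higher in naive-derived than in memory-derived stimulated cells, 2 of 8 genes, against 1.69% of all genes tested (3.7% in either direction), and none was lower, against 2.01%. Of all 548 genes called, 250 were higher, and of 369 called after scaling to the hybridization controls, 125 were. At an unadjusted p of 0.05, 3 of the 8 were called, against 2418 of the 14795 genes tested. The median difference was 0.20 over the 8 and -0.01 over all genes.

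Cd8a was 8.99, 9.33 and 8.87 in naive-derived stimulated cells, against 7.82, 7.87 and 7.81 in memory-derived stimulated cells. The lowest naive-derived array lay nearly a full log2 unit above the highest memory-derived one. The difference was 1.23 (SE 0.188, 95% interval 0.82 to 1.65, limma adjusted p 0.0045), a 2.35-fold higher level, and ranked 74th from the highest of 14795 genes. Cd8b1 was 8.74, 8.66 and 8.75 in naive-derived stimulated cells, against 8.04, 8.16 and 8.14 in memory-derived stimulated cells. The groups were tight and separate, and the difference was 0.60 (SE 0.105, limma adjusted p 0.00997). Without the first memory-derived stimulated array it was 0.56 with an adjusted p of 0.0532. The macrophage and dendritic cell sums were lower in the naive-derived cells here too, while Adgre1 and Flt3 averaged higher in them. The part of this signal in the differences was not tested.

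Prkcq, which set the unstimulated groups apart, averaged 3.70 ± 0.362 in naive-derived stimulated cells and 3.93 ± 0.159 in memory-derived stimulated cells (SD, n = 3 each). The difference of -0.23 (95% interval -0.65 to 0.19, limma adjusted p 0.610) lay within the spread of the arrays. Lat was 7.67, 8.01 and 7.95 in naive-derived stimulated cells, against 7.52, 7.52 and 7.48 in memory-derived stimulated cells. No arrays overlapped, but the difference of 0.37 (SE 0.136) did not pass, with a limma adjusted p of 0.190. The CD3 chains and Zap70 differed by 0.04 to 0.26, with limma adjusted p-values of 0.325 to 0.915.

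Ordered by group mean, the 8 genes fell into different patterns. Cd8a was highest in naive-derived unstimulated cells (9.65 ± 0.00716, SD, n = 2), then naive-derived stimulated cells (9.07 ± 0.239, n = 3), memory-derived unstimulated cells (8.61 ± 0.387, n = 3) and memory-derived stimulated cells (7.83 ± 0.0341, n = 3). Of its neighbours in that order, the last pair passed the test, the first pair did not, and the middle pair was not compared. Cd8b1 had the same order, at 8.73, 8.71, 8.43 and 8.12, with the same outcome for each pair. Prkcq was highest in memory-derived unstimulated cells (5.95 ± 0.230, n = 3), followed at a distance by naive-derived unstimulated cells (4.10 ± 0.114, n = 2), memory-derived stimulated cells (3.93 ± 0.159, n = 3) and naive-derived stimulated cells (3.70 ± 0.362, n = 3). The gap below the first group passed, while the comparisons made among the lower 3 did not.

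The CD3 chains, Zap70 and Lat had no neighbours in their order that passed. Cd3g was highest in memory-derived unstimulated cells (9.41), then naive-derived unstimulated (9.15), naive-derived stimulated (8.70) and memory-derived stimulated cells (8.66), and Cd3e had the same order, at 8.05, 8.05, 7.59 and 7.50. Cd247 was 6.62 in naive-derived unstimulated cells, 6.52 in naive-derived stimulated cells, 6.46 in memory-derived unstimulated cells and 6.27 in memory-derived stimulated cells. Zap70 and Lat shared an order, with naive-derived unstimulated cells first (7.68 and 8.13), then naive-derived stimulated (7.58 and 7.88), memory-derived stimulated (7.44 and 7.51) and memory-derived unstimulated cells (7.43 and 7.41).

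Within groups, the arrays of Cd8b1 agreed most closely, with a pooled SD of 0.0516, and those of Cd3e least, at 0.269; the median over all genes was 0.221. The range over the 11 arrays was 0.482 for Cd247, 1.84 for Cd8a and 2.78 for Prkcq, against a median of 1.01 over all genes. Of the 28 pairs of members, Cd247 and Zap70 had the most alike profiles, with a root mean square distance of 0.162 (log2) over the 11 arrays after each gene was centred on its mean, and Cd8a and Prkcq the least alike, at 1.19.

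By the same distance, the genes nearest to Prkcq were Tk1 (0.177), Rcsd1 (0.193) and Add1 (0.195), and those nearest to Cd8a were Socs2 (0.211), Zbp1 (0.254) and Tesc (0.255). Dzip3 (0.101), Donson (0.109) and Pmaip1 (0.111) were nearest to Cd3g. Ptms (0.0991), Ctdnep1 (0.108) and Klhdc3 (0.123) were nearest to Cd8b1, and Tars2 (0.123), Trim44 (0.136) and Pgam1 (0.138) to Lat. Genes with a small range are near to many others by this measure.

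**Figure D3:**
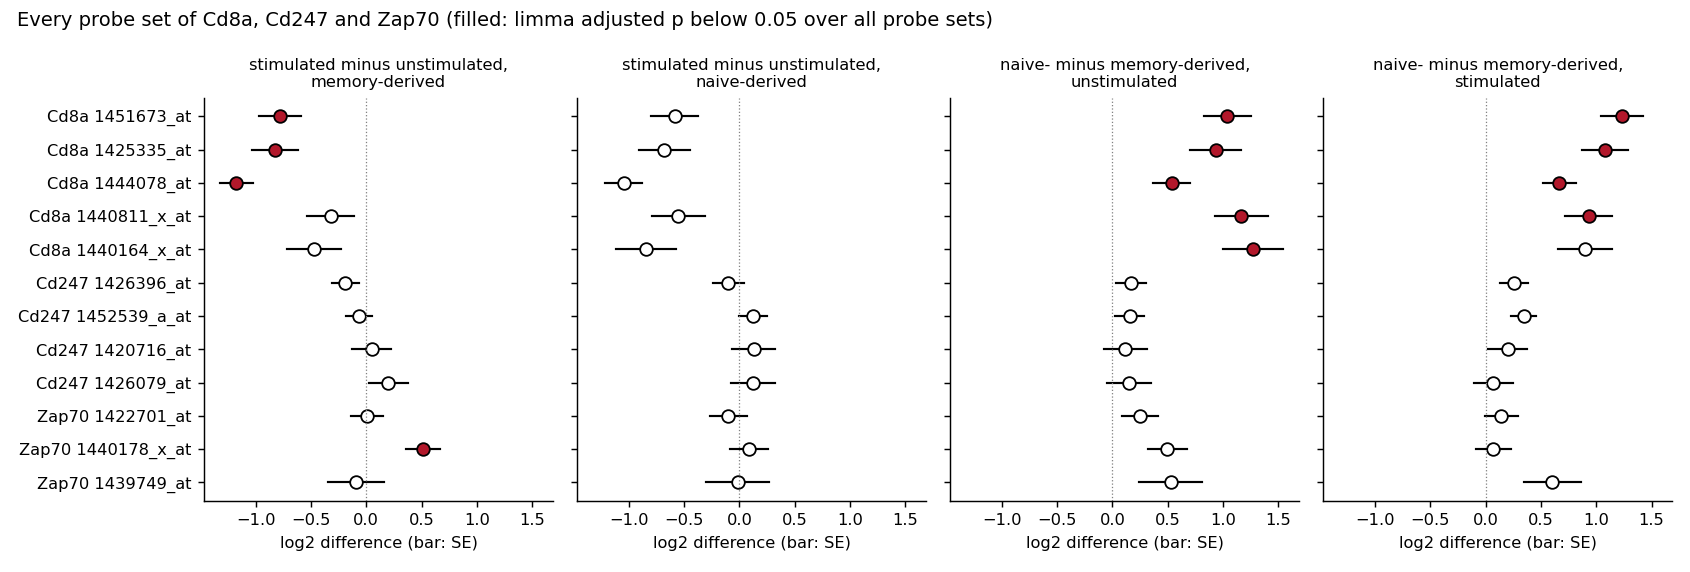
Log2 difference ± SE (x axis) for each of the 12 probe sets of Cd8a, Cd247 and Zap70 (points, filled where the limma test passed) in the 4 pairwise comparisons (panels), from a fit in which every single-symbol probe set was its own feature. The 5 Cd8a probe sets lie between 0.54 and 1.27 for naive minus memory in unstimulated cells, while the Zap70 probe sets lie on both sides of zero for stimulation in memory-derived cells.

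The members with several probe sets were also tested probe set by probe set, among 27046. Cd8a has 5 probe sets, and in unstimulated cells all 5 were higher in naive-derived cells, by 0.54 to 1.27. In stimulated cells 4 of 5 passed, at 0.67 to 1.23, and the remaining one differed by 0.90 (limma adjusted p 0.0865). For stimulation in memory-derived cells 3 of 5 fell, by 0.78, 0.82 and 1.17, while the others differed by -0.32 and -0.47 (limma adjusted p 0.302 and 0.185). For stimulation in naive-derived cells the 5 were at -1.05 to -0.55 and none passed.

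By origin, all 3 probe sets of Zap70 were higher in naive-derived cells, and none passed. For 1422701_at, 1439749_at and 1440178_x_at the differences were 0.25, 0.53 and 0.50 in unstimulated cells. They were 0.14, 0.60 and 0.07 in stimulated cells. For stimulation, the probe sets of Zap70 disagreed. In memory-derived cells, 1440178_x_at rose by 0.51 with stimulation (SE 0.156, limma adjusted p 0.0298), while 1422701_at, the brightest, differed by 0.01 and 1439749_at by -0.09. The 4 probe sets of Cd247 differed by -0.19, -0.07, 0.05 and 0.20 in the same comparison, and none passed; 1426079_at was above the filter level on 5 of the 11 arrays.

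Around the members, 67 other genes of the pathway were counted in 4 lists, of which 58 had a single-symbol probe set and 56 were tested. With stimulation of memory-derived cells 8 of the 56 rose and 27 fell, against 14.3% and 17.3% of all genes tested, with a median of -0.38. In naive-derived cells none passed limma's test, 13 had an unadjusted p under 0.05, against 1252 of all 14795 genes, and the median was -0.11. Between origins, naive minus memory, 6 were higher and 20 lower in unstimulated cells, against 10.9% and 14.9% of all genes (median -0.24). In stimulated cells 3 were higher and 3 lower, against 1.69% and 2.01% of all genes (median -0.05). Stimulation of memory-derived cells and origin in unstimulated cells, which hold most of these calls, share the memory-derived unstimulated arrays, whose actin gap was the lowest; its part was not tested. Of the 35, 26 and 6 calls in these comparisons, 23, 15 and 2 held under every alternative tried. Those lost under at least 1 alternative were Cd3d, Cd28, Ptprc, Txk, Ptprj, Lcp2, Grap, Plcg1, Cd2ap, Dock2, Prkcb and Prkch for stimulation of memory-derived cells. They were Csk, Pag1, Ptprj, Sla, Lcp2, Wipf1, Skap1, Rasgrp2, Pik3cd, Prkd2 and Prkd3 for origin in unstimulated cells, and Cd2, Cd28, Grap2 and Rasgrp2 for origin in stimulated cells.

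**Figure D4:**
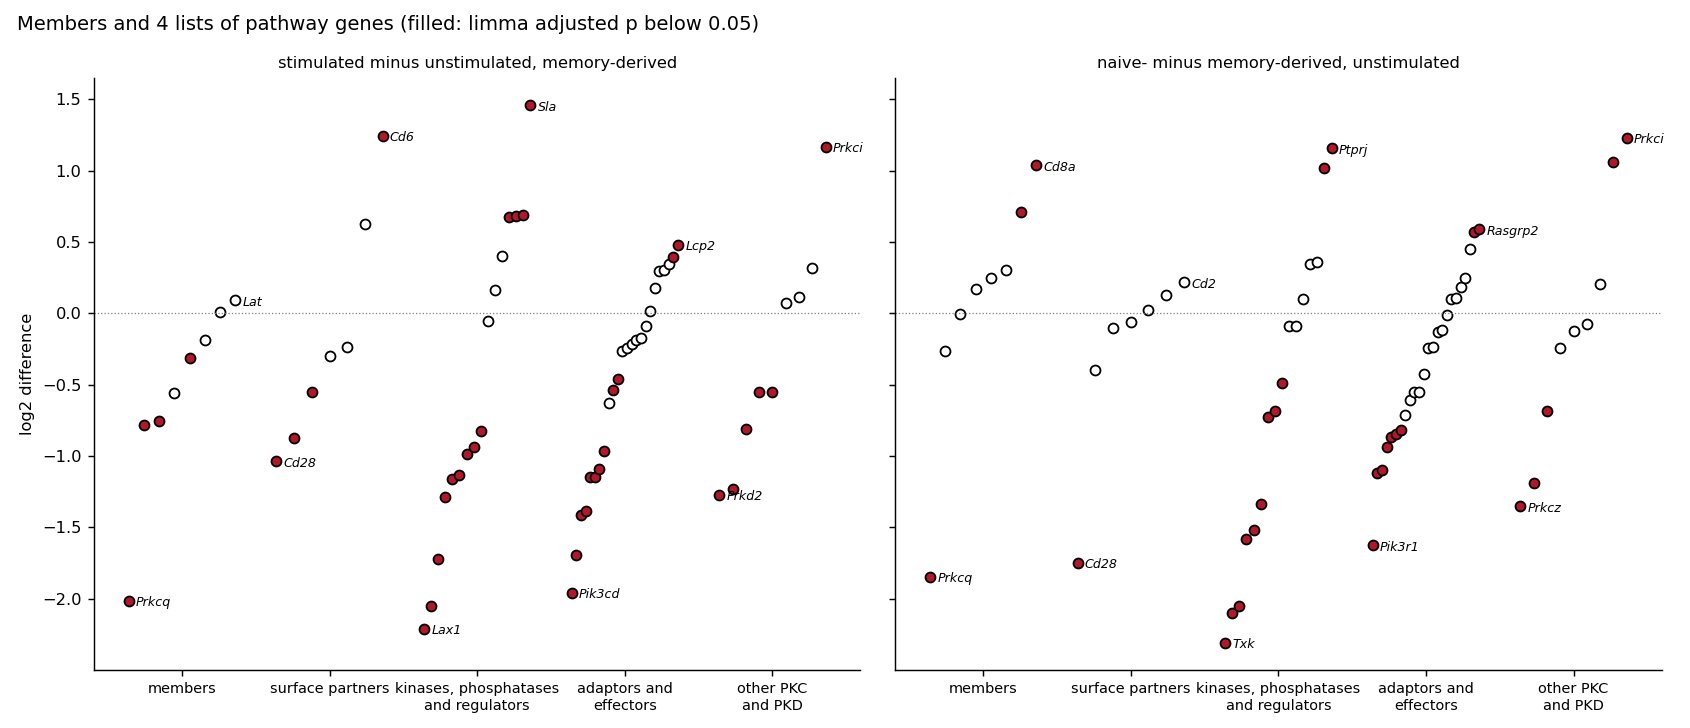
Log2 difference (y axis) of the 8 members and of the tested genes of the 4 pathway lists (groups of points along the x axis, sorted within a group and filled where the limma test passed) for stimulated minus unstimulated memory-derived cells (left) and naive-derived minus memory-derived unstimulated cells (right). On the left 27 of the 56 pathway genes fell and 8 rose, and on the right 20 were lower and 6 higher.

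The counts per list that follow are to be read against the same shares of all genes. Among receptor chains and surface partners, 7 were tested, and with stimulation of memory-derived cells 3 fell and 1 rose. Cd3d, the remaining CD3 chain, fell by 0.55 (limma adjusted p 0.00636), Cd28, the costimulatory receptor, by 1.04, and Ptprc, the CD45 phosphatase, by 0.87. Cd6, a receptor for the adhesion molecule ALCAM, rose by 1.24. Between origins, Cd28 was lower in naive-derived cells, at -1.75 in unstimulated cells and -1.05 in stimulated cells, where experiment as a block gave an adjusted p of 0.0559, and Cd2, an adhesion receptor, was higher by 0.81 in stimulated cells. Cd3d in the other comparisons was at -0.07 for stimulation of naive-derived cells, and at -0.40 (adjusted p 0.0549) and 0.08 for origin in unstimulated and stimulated cells. Ptprc was at -0.48, -0.10 and 0.29 in those 3, and neither gene passed in them.

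Among 16 kinases, phosphatases and their regulators, 9 fell with stimulation of memory-derived cells: Lax1 (-2.21) and Sit1 (-1.72), transmembrane adaptors that dampen signalling, Ptpn6 (-2.05), which encodes the SHP-1 phosphatase, Sla2 (-1.28), Unc119 (-1.16), Pag1 (-1.13), the adaptor that holds CSK at the membrane, Ptprcap (-0.98), Txk (-0.93), a Tec family kinase, and Csk (-0.82), the kinase that inhibits LCK. With the mean of a gene's probe sets Pag1 was -0.43 here, and -0.36 for origin in unstimulated cells (adjusted p 0.101). The 4 that rose were Sla (1.46), which promotes receptor chain degradation, Tec (0.69), Sh2d2a (0.68) and Ptprj (0.67). Fyn, the other Src family kinase of the receptor, was at 0.40 (limma adjusted p 0.0659) in memory-derived cells and 0.48 (adjusted p 0.499) in naive-derived cells, and at 0.36 and 0.44 for origin in unstimulated and stimulated cells (adjusted p 0.145 and 0.166).

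In unstimulated cells, 9 of those 16 were lower in naive-derived than in memory-derived cells: Txk (-2.31), Lax1 (-2.10), Sit1 (-2.05), Ptpn6 (-1.58), Unc119 (-1.52), Sla2 (-1.33), Ptprcap (-0.72), Pag1 (-0.69) and Csk (-0.49). With experiment as a block, Pag1 had an adjusted p of 0.0569 and Csk of 0.0814. Ptprj (1.16) and Sla (1.02) were higher. In stimulated cells only Txk of the 16 passed (-1.70).

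Of 24 adaptors and effectors, 10 fell with stimulation of memory-derived cells: Pik3cd (-1.96) and Pik3r1 (-1.41), subunits of phosphoinositide 3-kinase, Rasgrp1 (-1.69), a Ras activator that binds diacylglycerol, Fyb (-1.38) and Skap1 (-1.15), integrin adaptors, Wipf1 (-1.15) and Was (-0.97), which act on actin, Plcg1 (-1.09), Dock2 (-0.53) and Grap (-0.46). With the mean of a gene's probe sets, Plcg1 was -0.20 (limma adjusted p 0.387), Pik3cd -0.61 and Rasgrp1 -0.96, and without the third memory-derived unstimulated array Dock2 was -0.34 (adjusted p 0.150). Lcp2, the SLP-76 adaptor that joins LAT, rose by 0.48 and Cd2ap by 0.39, and experiment as a block gave them adjusted p-values of 0.0578 and 0.0716. Without the third memory-derived unstimulated array Lcp2 was 0.31 (adjusted p 0.0963). In unstimulated cells, Pik3r1 (-1.63), Fyb (-1.12), Rasgrp1 (-1.10), Pik3cd (-0.93), Was (-0.87), Wipf1 (-0.85) and Skap1 (-0.82) were lower in naive-derived cells. Rasgrp2 (0.59) and Lcp2 (0.57) were higher there, with adjusted p-values of 0.0766 and 0.0764 under the block. With the mean of probe sets, Pik3cd was -0.16 (limma adjusted p 0.478), Rasgrp1 -0.63, Skap1 -1.38 and Rasgrp2 0.22 (adjusted p 0.329) in unstimulated cells. In stimulated cells Rasgrp2, which activates Rap, was higher (0.94, and 0.56 with the mean of probe sets) and Grap2, the adaptor GADS, lower (-1.43) in naive-derived cells. The Grap2 values of naive-derived stimulated cells were dim and scattered, from 0.996 to 2.57, around the filter level of 1.54. Lcp2 was at 0.12 for stimulation of naive-derived cells and 0.21 for origin in stimulated cells, and Plcg1 was at -0.22 for stimulation of naive-derived cells and at -0.42 and 0.45 for origin in unstimulated and stimulated cells; none of these 5 passed.

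Of the 9 other protein kinase C and D genes, 5 fell with stimulation of memory-derived cells, against 17.3% of all genes: Prkd2 (-1.27), Prkcz (-1.23), Prkd3 (-0.81), Prkch (-0.55) and Prkcb (-0.55). Prkci, an atypical isoform, rose by 1.17. With the mean of a gene's probe sets Prkd2 was -0.56, Prkcz -0.81, Prkd3 -0.46 and Prkcb -0.34 (adjusted p 0.124). In unstimulated cells Prkcz (-1.35), Prkd2 (-1.19) and Prkd3 (-0.69) were lower in naive-derived cells, while Prkci (1.23) and Prkca (1.06) were higher. By the mean of probe sets these were -0.49 for Prkd2 (limma adjusted p 0.111), -0.41 for Prkd3 and 0.61 for Prkca. In stimulated cells only Prkca of the 9 passed, higher in naive-derived cells by 0.95.

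The response to stimulation differed by origin for 3 of the 56 pathway genes, each less negative in naive-derived cells. Of all genes tested, 1.62% were called in that direction and 1.09% in the other. The difference was 1.40 for Ptpn6, 1.15 for Pik3cd and 0.96 for Rasgrp1, with limma adjusted p-values of 0.0258, 0.0401 and 0.0362. With experiment as a block the adjusted p-values were 0.0634, 0.0862 and 0.0810, and with the mean of probe sets Pik3cd was 0.19 (adjusted p 0.629) and Rasgrp1 0.55 (adjusted p 0.0664). Over all genes, 401 were called for a difference in response, but 26 with the block, and 0 to 1505 when single arrays were left out.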

How the data were processed

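RNA of 11 cell samples in 4 groups, assigned from the sample labels, was measured on Affymetrix arrays, for which Affymetrix Expression Console is named in the submitters' processing notes. The authors deposited quantile-normalized values, taken here to be log10 values. The normalization shows in the table itself, since its columns differ only in the order of the values (0 to 4.56, median 0.554). How probe signals were summarised, and the log base, are not given in the sources used here. Base 10 was inferred, and not settled, from 18 hybridization control probe sets, whose means stepped by 0.965, 0.800 and 1.70 per unit of log10 concentration, and all folds rest on it. Array values carry no depth, so precision depends on how many arrays there were.

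Values were put on a log2 scale by a factor of 3.32. Of 45101 probe sets, 64 were controls, 9160 were absent from the annotation, 932 named several symbols and 34945 named a single one. Each gene was represented by its brightest probe set and kept if 2 or more arrays showed it above their own percentile 40, which left 14795 genes. The fit used lmFit and eBayes (limma 3.58.1, R 4.3.3) on 4 group means, with 7 residual and 3.86 prior degrees of freedom. P-values are two-sided and adjusted by Benjamini-Hochberg over all genes tested, with a threshold of 0.05. All 5 comparisons share 1 estimate of the spread. Figures were drawn with matplotlib 3.10.9 under Python 3.11.15.

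The members and the lists were chosen with earlier results of these data known. Named were all members, every pathway gene that passed in a comparison, Cd3d, Fyn, Lcp2, Plcg1 and Ptprc whatever their result, and the 3 genes nearest to each member that passed. The labels tie replicate numbers to independent experiments, which pairs the arrays. Deviations of same-experiment arrays from their group means correlated at -0.0716 to 0.112 over 15 pairs, against -0.131 to 0.112 over 30 pairs of different experiments. Alternatives were experiment as a block, other filters, the mean of probe sets, scaling to the hybridization controls, an intensity-dependent prior, only the arrays compared, experiments 1 and 2 alone, each array left out and, chosen after seeing the data, every probe set tested separately.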

Additional observations from a re-analysis of the deposited data

Results flagged for a closer look

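The response to the final stimulation differed by origin, in a direct test of the difference by limma, for 1 member and 3 pathway genes. The difference, naive-derived minus memory-derived response, was 1.61 (SE 0.286, adjusted p 0.0261) for Prkcq, whose level fell by 2.02 in memory-derived cells. It was 1.40 (SE 0.246, adjusted p 0.0258) for Ptpn6, 1.15 (SE 0.241, adjusted p 0.0401) for Pik3cd and 0.96 (SE 0.192, adjusted p 0.0362) for Rasgrp1. All 4 rest on the 3 memory-derived unstimulated arrays, which stood apart from the rest, and on 2 naive-derived unstimulated arrays. None of the 4 calls held in every alternative, and with experiment as a block the adjusted p-values were 0.0634 for Prkcq, 0.0634 for Ptpn6, 0.0862 for Pik3cd and 0.0810 for Rasgrp1. Pik3cd was 0.19 (adjusted p 0.629) with the mean of its probe sets. Over all genes tested, 2.71% were called for a difference in response. No group had the 4 arrays needed to look for single outlying values.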

How the results depend on the processing

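Of the 40 member results, 10 were called in the main fit, and only those 10 could lose a call. Of the 816 alternative values of the 40 results, 756 kept their direction and their side of the threshold. A call was lost in 32 and gained in 5, and 23 changed sign, none of these 23 among called results. Cd3g, Cd8a and Prkcq for stimulation of memory-derived cells, Cd8a and Prkcq for origin in unstimulated cells, and Cd8a for origin in stimulated cells passed under every alternative. The single member called for a difference in response gave a count of 0 with the replicate block (experiment; Prkcq 1.63, adjusted p 0.0634), with the replicate block by origin and experiment, with scaling to the hybridization controls and with experiments 1 and 2 only, and 0 to 1 with single arrays left out. For origin in stimulated cells the count of 2 was 1 with the control scaling, where Cd8b1 had an adjusted p of 0.232, and 1 with experiments 1 and 2 only, and 1 to 2 with single arrays left out. The replicate block also ended the Cd8b1 call for stimulation of memory-derived cells (adjusted p 0.0648, and 0.0183 to 0.248 over all alternatives) and no other member call. The control scaling also ended the Lat call for origin in unstimulated cells (0.65, adjusted p 0.0858). Calls were gained by Cd3e for stimulation of memory-derived cells with the stricter filter, the intensity-dependent prior (adjusted p 0.0358 and 0.0332) or without memory-derived unstimulated array 1. For origin in unstimulated cells they were gained by Cd8b1 with the stricter filter and by Zap70 with the mean of its probe sets.

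Signs changed only for small, uncalled differences. Cd3e for origin in unstimulated cells was 0.0482 with the replicate block and 0.0877 with experiments 1 and 2 only. With the mean of probe sets, Cd247 was 0.0686 for stimulation of naive-derived cells and Cd8a -0.0271 for the difference in response. With the control scaling, Zap70 was -0.0172 for stimulation of memory-derived cells and Cd3g -0.0396 for origin in stimulated cells; Zap70 was -0.0387 with experiments 1 and 2 only. With single arrays left out, the ranges for stimulation were -0.0307 to 0.0520 for Zap70 and -0.0121 to 0.155 for Lat in memory-derived cells, and -0.0319 to 0.0112 for Cd8b1 and -0.236 to 0.0491 for Zap70 in naive-derived cells. For origin they were -0.232 to 0.226 for Cd3e in unstimulated cells, and -0.0338 to 0.240 for Cd3e and -0.0753 to 0.138 for Cd3g in stimulated cells. For the difference in response they were -0.128 to 0.329 for Cd3e, -0.0201 to 0.355 for Cd8a and -0.243 to 0.0424 for Zap70. The cause was not tested.

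Counts over all genes also moved. For the difference in response, 401 genes became 26 with the replicate block, 0 with the block by origin and experiment, 174 with no filter, 1064 with the stricter filter, 146 with control scaling (68 higher), 1102 with the intensity-dependent prior and 49 with experiments 1 and 2 only, and 0 to 1505 with single arrays left out. Stimulation of memory-derived cells gave 3035 with control scaling and 2755 with experiments 1 and 2 only, against 4675. Origin in unstimulated cells gave 2407 with control scaling and 2376 with only the arrays compared, against 3819, and 1843 to 4161 with single arrays left out, lowest without either naive-derived unstimulated array (1946 and 1843). Origin in stimulated cells gave 369 with control scaling (125 higher) and 258 with experiments 1 and 2 only, against 548, and 287 to 701 with single arrays left out (287 without memory-derived stimulated array 1). Stimulation of naive-derived cells gave 0 to 10, against 2. Tested singly, 7608 and 6073 probe sets were called for stimulation of memory-derived cells and for origin in unstimulated cells.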
